A study of Mus musculus with 6 samples.

Results

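The HoxD cluster is 1 of the 4 mouse Hox gene clusters and holds 9 Hoxd genes. It was examined as every accessible interval on chromosome 2 (mm10) with its midpoint between 74663000 and 74770000. Of 52223 consensus intervals in the series, 23 lay in this 107 kb window, and all 23 passed the filter on low counts. They are numbered here from 1, beside Hoxd13, to 23, at Hoxd1. The rule for membership uses position only, although the cluster itself was picked with earlier results of these data known.

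Chromatin accessibility was measured by ATAC-seq, which reads out where a transposase, Tn5, can insert adapters into the DNA of nuclei. The cells were neural progenitors derived from mouse embryonic stem cells. Every culture began in N2B27 medium with basic FGF. CHIR99021, a GSK3 inhibitor, was given at 5 µM on day 2. Retinoic acid at 100 nM and Smoothened agonist (SAG) at 10 nM followed on day 3, and SAG alone was kept from day 5. On day 5 the control group (mScarlet) received a lentivirus encoding the fluorescent protein mScarlet3, and the Nr6a1OE group a lentivirus encoding Nr6a1 joined to mScarlet3 by a 2A peptide. Fluorescent cells were sorted on day 9 and 50000 cells entered each library, with 3 libraries in each group. Not given in the sources used here: the stem cell line, the promoter of the virus, and whether libraries of a group came from separate cultures. The p-values below therefore measure only the spread between these libraries, which may be technical.

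Hox genes encode homeodomain transcription factors that give cells their position along the head-to-tail axis. Within a cluster the genes lie in the order of their use: Hoxd1, Hoxd3 and Hoxd4 act early and anteriorly, and Hoxd10 to Hoxd13 late and posteriorly, in the lower trunk, tail, limbs and genital bud. Retinoic acid activates the anterior genes, Polycomb complexes keep unused genes silent, and enhancers in the gene deserts on both sides act over long distances. Nr6a1 (also called GCNF) is a nuclear receptor with no known ligand, a repressor of pluripotency genes, and is known to shape Hox expression in the trunk of the mouse embryo. The comparison asks whether its overexpression altered accessibility of the cluster.

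Sequences of the 250 bases before annotated gene starts are given first for 5 genes, from RefSeq (GRCm38.p6, the coordinates of mm10). Hoxd12 and Hoxd4 are shown because their starts lay outside every interval. Hoxd8 is shown because, of the intervals at Hoxd8 to Hoxd13 starts, its own had the highest level per kb, Hoxd3 because it holds a pair of overlapping motif matches, and Hoxd3os1 because its start lies in an interval described below. Capitals mark matches on either strand to the nuclear receptor site AGGTCA or to the Cdx site TTTATG. Each sequence reads 5′ to 3′ on the strand of its gene.
Hoxd12 (chr2:74674763-74675012, plus strand): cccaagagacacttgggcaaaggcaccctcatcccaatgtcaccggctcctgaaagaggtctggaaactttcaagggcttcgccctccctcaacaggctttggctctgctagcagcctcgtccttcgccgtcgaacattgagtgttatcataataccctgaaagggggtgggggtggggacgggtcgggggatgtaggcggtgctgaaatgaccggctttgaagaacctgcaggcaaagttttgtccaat
Hoxd8 (chr2:74704365-74704614, plus strand): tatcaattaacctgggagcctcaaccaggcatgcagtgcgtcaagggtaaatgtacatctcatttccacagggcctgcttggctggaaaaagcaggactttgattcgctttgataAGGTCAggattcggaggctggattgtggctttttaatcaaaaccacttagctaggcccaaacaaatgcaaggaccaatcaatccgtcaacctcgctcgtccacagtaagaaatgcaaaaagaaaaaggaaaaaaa
Hoxd3 (chr2:74711743-74711992, plus strand): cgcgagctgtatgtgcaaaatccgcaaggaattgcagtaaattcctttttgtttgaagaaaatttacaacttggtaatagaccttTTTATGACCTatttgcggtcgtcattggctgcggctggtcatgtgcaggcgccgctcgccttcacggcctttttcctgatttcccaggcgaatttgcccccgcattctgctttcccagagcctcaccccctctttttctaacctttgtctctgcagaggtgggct
Hoxd3os1 (chr2:74716131-74716380, minus strand): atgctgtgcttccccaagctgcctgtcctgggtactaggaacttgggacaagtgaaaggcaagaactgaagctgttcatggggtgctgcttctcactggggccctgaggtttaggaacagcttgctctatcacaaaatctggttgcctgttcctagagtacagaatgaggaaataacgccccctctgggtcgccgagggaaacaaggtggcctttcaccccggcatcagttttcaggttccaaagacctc
Hoxd4 (chr2:74721728-74721977, plus strand): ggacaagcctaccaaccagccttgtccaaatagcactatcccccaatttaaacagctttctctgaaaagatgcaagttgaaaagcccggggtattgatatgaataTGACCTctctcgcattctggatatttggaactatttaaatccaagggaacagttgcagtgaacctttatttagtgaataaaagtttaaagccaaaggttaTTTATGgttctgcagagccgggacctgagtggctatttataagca

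All 9 Hoxd genes matched the promoter table, with 10 starts in all, 2 of them for Hoxd11. The site AGGTCA was found before 4 of these starts, those of Hoxd10, Hoxd8, Hoxd3 and Hoxd4, and before 14.02% of 32851 gene starts in the table. TTTATG was found before 3, at Hoxd11, Hoxd3 and Hoxd4, against 10.8% of all. Both strands were searched. In Hoxd3 the 2 matches overlap. A direct repeat of AGGTCA with no base between the copies, to which Nr6a1 is known to bind, and its shortened form TCAAGGTCA were before 0 of the 10 starts. They were before 0.0061% and 0.39% of all. The longer sites contain the shorter one. The CTCF core motif was also before 0 of the 10, against 0.51% of all. GC content before the Hoxd starts ran from 40.4% at Hoxd4 to 74.4% at Hoxd13, with a median of 52.4% over the whole table.

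The microRNA gene Mir10b lies inside the cluster, in the span of Hoxd4 (chr2:74726070-74726137). Its hairpin sat in the gap between intervals 13 and 14, 0.40 kb past the end of interval 13, which had the largest difference between the groups. The mature strand is shown with its seed, bases 2 to 8, in capitals.
mmu-miR-10b-5p: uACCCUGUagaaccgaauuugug

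The libraries held 6857763 to 8030029 fragments in intervals, and 4634 to 5474 of these lay in the 23 HoxD intervals. Single HoxD intervals held 34 to 420 fragments per library. Levels are counts per 1000000 fragments in intervals (CPM), with library sizes scaled by TMM factors. Levels of different intervals are compared only as CPM per kb of interval. Start intervals of neural progenitor genes were present for 9 of 10 listed markers (Sox3 had none), with a summed level of 838 to 872 CPM in mScarlet and 843 to 861 CPM in Nr6a1OE. For post-mitotic neurons 5 of 6 markers had one, with 260 to 271 CPM in mScarlet and 245 to 261 CPM in Nr6a1OE. Of the pluripotency genes, Nanog, Pou5f1 and Zfp42 had no start interval, and neither did Sox17, Gata4 and Gata6 of endoderm, Tbx6, Meox1 and Foxc2 of mesoderm, Sox10 of neural crest, or Cdh5 and Gata1 of endothelium and blood. The remaining markers of those 5 lists had one. These were 2 of 5 genes of pluripotent cells (Esrrb, Tfcp2l1), of mesoderm (T, Mesp1) and of endoderm (Cdx2, Foxa2). Neural crest had 3 of 4 (Foxd3, Tfap2a, Tfap2b), and endothelium and blood 2 of 4 (Kdr, Tal1). Summed levels of each of these lists stood between 28.5 and 86.4 CPM in every library. Sums of different lists are not compared, because number of genes and interval length differ. In mScarlet these markers ran from 5.16 CPM per kb at T to 26.5 at Tfap2a. Of the neural progenitor markers, Nkx2-2 (22.8), Olig2 (21.5) and Pax6 stood below Tfap2a. The others with a start interval stood above Tfap2a, up to 69.2 CPM per kb at Hes5. The part of other cell types in the values below was not tested, and in bulk libraries a small change in all cells cannot be told apart from a larger one in some of them.

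In control progenitors accessible intervals were spread from Hoxd13 to Hoxd1, with gaps of up to 9054 bp, and the level per kb was mostly higher toward Hoxd1. An exception was interval 1, at the Hoxd13 end and only 242 bp long. It had 28.1 CPM per kb, rank 4 in the cluster. No interval lay in the span of Hoxd12. The 23 intervals covered 29.7% of the window and were 242 to 2827 bp long. Their control levels stood between the 57.4th and the 91.5th percentile of all tested intervals. Starts of 7 of the 9 Hoxd genes lay in 8 intervals. The annotated start of Hoxd12 was 857 bp from interval 3, and that of Hoxd4 was 2917 bp from interval 13. The 8 start intervals had 10.2 to 26.7 CPM per kb in mScarlet, all below 31.4 CPM per kb, the median over 11703 tested intervals that hold a gene start. The start intervals of the flanking genes Lnpk and Mtx2 had 37.6 and 31.7 CPM per kb, and that of Evx2, a homeobox gene beside Hoxd13, had 15.3 CPM per kb.

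**Figure D1:**
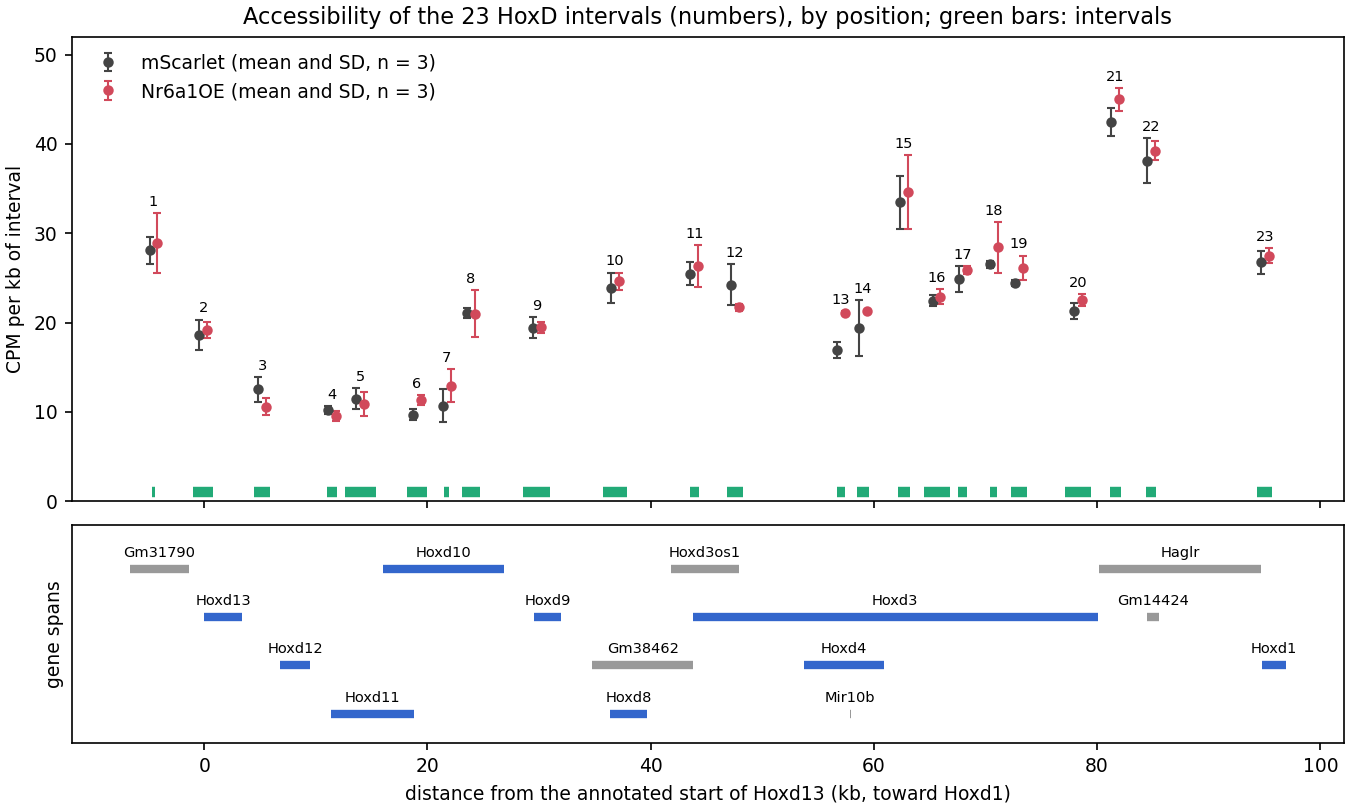
Level of each of the 23 HoxD intervals in CPM per kb against its distance in kb from the start of Hoxd13, as mean and SD of 3 mScarlet (grey) and 3 Nr6a1OE (red) libraries, with gene spans below. Levels are lowest at intervals 4 to 7, in the spans of Hoxd11 and Hoxd10, and highest at intervals 21 and 22, in the span of Haglr.

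The most accessible stretch per kb was not at a Hoxd start. Interval 21 (chr2:74749402-74750322) had 42.2, 41.1 and 44.2 CPM per kb in mScarlet 1, 2 and 3. It lies in the span of Haglr, a long non-coding RNA gene between Hoxd3 and Hoxd1. Interval 22 (chr2:74752565-74753536), at the start of the non-coding gene Gm14424 in the same span, had 36.7, 41.0 and 36.6 CPM per kb. Interval 15 (chr2:74730350-74731424), inside the long span of Hoxd3 and past the end of Hoxd4, had 33.5, 30.5 and 36.5 CPM per kb. These 3 intervals led the order in mScarlet. At the other end of the order stood intervals 4 to 7, with 9.68 to 11.5 CPM per kb on average. Of the 22 pairs of neighbours in the order of control levels, 18 had overlapping ranges over the 3 mScarlet libraries, so the exact ranks within the order are not resolved.

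By the nearest gene span, 8 intervals fell to Hoxd10 to Hoxd13, 2 to Hoxd8 and Hoxd9, and 13 to Hoxd1, Hoxd3 and Hoxd4. Their mean levels in mScarlet were 15.3 ± 0.46, 21.6 ± 0.62 and 26.6 ± 0.19 CPM per kb (SD, n = 3). In Nr6a1OE they were 15.5 ± 0.78, 22.04 ± 0.45 and 27.9 ± 0.58 CPM per kb (SD, n = 3). The anterior mean was 1.68, 1.75 and 1.80 times the posterior mean in mScarlet 1, 2 and 3 and 1.68, 1.92 and 1.79 times in Nr6a1OE 1, 2 and 3. The order of the 3 gene groups was thus the same in all 6 libraries, and the ratio overlapped between the groups. Across the 23 intervals, Spearman's rho between position and level per kb was 0.61 to 0.76 over the libraries. This is a description of intervals that share libraries and depth. They differ in length, with a median of 1047 bp for the anterior and 1594.5 bp for the posterior intervals.

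With Nr6a1 overexpression no HoxD interval changed past the threshold. The edgeR quasi-likelihood test, fitted to all 51637 tested intervals, called 0 of the 23 at an adjusted p under 0.05, where 1.73% of all tested intervals were called (0.469% higher and 1.26% lower in Nr6a1OE). DESeq2 also called 0 of the 23, where it called 0.191% of all intervals. At an unadjusted p under 0.05 edgeR had 4 of the 23, 2 higher and 2 lower, against 12.6% of all tested (5.73% higher and 6.87% lower). The lowest adjusted p of the cluster was 0.168, at interval 13.

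The differences that these libraries allow were small. Log2 fold changes (Nr6a1OE over mScarlet) ran from -0.25 at interval 3 to 0.31 at interval 13, with standard errors (SE) of 0.062 to 0.19. At 22 of the 23 intervals the 95% interval of the change lay within 1.5-fold in either direction, and at 19 within 1.3-fold. Like the p-values, these 95% intervals measure only the spread between these libraries, and may not cover a spread between separate cultures. Interval 7, the weakest with 34 to 48 fragments per library, was the exception and reached 1.56-fold higher.

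**Figure D2:**
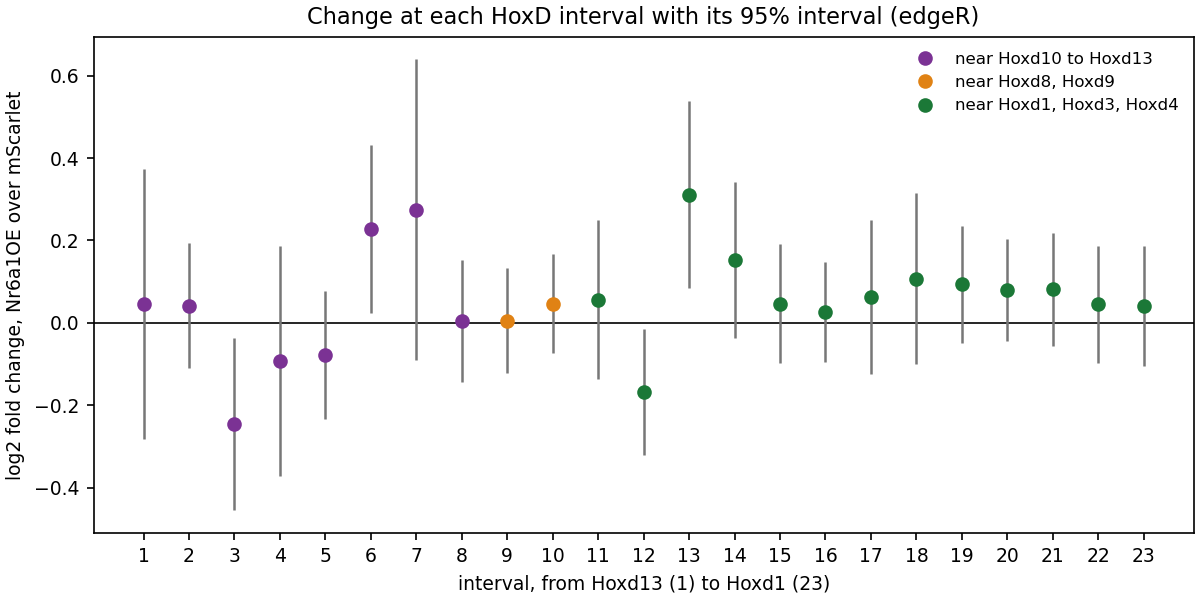
Log2 fold change of Nr6a1OE over mScarlet at each HoxD interval, in order from Hoxd13 to Hoxd1, with the 95% interval from edgeR (3 libraries per group) and colours for the nearest Hoxd genes. The 95% intervals of 19 of the 23 include 0, and 0 of the 23 passed the threshold on adjusted p.

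Among the posterior genes, interval 2 (chr2:74667248-74668994) spans the start of Hoxd13, the gene of the most posterior domain, digits and genital bud. It held 35.98, 31.0 and 30.6 CPM in mScarlet 1, 2 and 3 and 35.2, 32.3 and 32.9 CPM in Nr6a1OE 1, 2 and 3. The groups overlapped, with a log2 fold change of 0.04 (95% interval -0.11 to 0.19). Hoxd11, used in the forelimb and lower trunk, has 2 annotated starts. The first lay in interval 4 (chr2:74679184-74680156), with 9.44, 10.2 and 10.1 CPM in mScarlet and 9.79, 8.75 and 9.33 CPM in Nr6a1OE (log2 fold change -0.09, 95% interval -0.37 to 0.19). The second lay in interval 5 (chr2:74680802-74683628), the longest of the cluster, with 28.6, 35.2 and 33.6 CPM in mScarlet and 33.9, 26.4 and 31.8 CPM in Nr6a1OE. Here the lowest values were those of Nr6a1OE 2 and mScarlet 1, and the log2 fold change was -0.08 (95% interval -0.23 to 0.08). Interval 8 (chr2:74691289-74692964) spans the start of Hoxd10, a gene of lumbar motor neurons. It held 35.98, 35.5 and 34.2 CPM in mScarlet and 36.6, 30.2 and 38.7 CPM in Nr6a1OE, whose libraries lay on both sides of the controls (log2 fold change 0.0044, 95% interval -0.14 to 0.15).

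The central genes Hoxd9 and Hoxd8 act in the trunk, and their start intervals had 19.4 and 23.9 CPM per kb in mScarlet, below the 25.5 and 26.7 CPM per kb at the starts of Hoxd3 and Hoxd1. Interval 9 (chr2:74696795-74699240), at the start of Hoxd9, held 50.6, 46.7 and 45.3 CPM in mScarlet and 46.6, 47.0 and 49.3 CPM in Nr6a1OE. Its log2 fold change was 0.0055 (95% interval -0.12 to 0.13). Interval 10 (chr2:74703933-74706112), which holds the starts of Hoxd8 and of the non-coding gene Gm38462, had 48.4, 55.8 and 51.8 CPM in mScarlet and 56.1, 51.95 and 53.0 CPM in Nr6a1OE. Its log2 fold change was 0.05 (95% interval -0.07 to 0.17). At both genes the ranges of the groups overlapped.

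The anterior genes showed the same closeness at their starts. Interval 11 (chr2:74711750-74712535) holds the starts of Hoxd3 and of the non-coding gene Gm38462, with 20.4, 20.8 and 18.8 CPM in mScarlet and 18.6, 21.7 and 21.8 CPM in Nr6a1OE (log2 fold change 0.06, 95% interval -0.14 to 0.25). Hoxd3 is a gene of the upper neck. Interval 23 (chr2:74762591-74763924) holds the start of Hoxd1, the most anterior gene of the cluster. It had 35.2, 37.6 and 34.3 CPM in mScarlet and 36.6, 37.8 and 35.6 CPM in Nr6a1OE (log2 fold change 0.04, 95% interval -0.10 to 0.19). Over the 8 Hoxd start intervals the log2 fold changes ran from -0.09 to 0.06 and the edgeR adjusted p from 0.755 to 0.991, and the groups overlapped at all 8.

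At 4 of the 23 intervals, or 17.4%, the 3 Nr6a1OE libraries did not overlap the 3 mScarlet libraries, a share near the 16.6% of all tested intervals (7.89% higher and 8.73% lower in Nr6a1OE). These were the 4 with an unadjusted p under 0.05, and none holds a Hoxd start. Interval 13 (chr2:74724895-74725667), in the spans of Hoxd4 and Hoxd3 and next to Mir10b, had 12.5, 12.96 and 13.9 CPM in mScarlet and 16.2, 16.5 and 16.1 CPM in Nr6a1OE. All 3 Nr6a1OE libraries stood above all controls, at a log2 fold change of 0.31 with SE 0.12 (adjusted p = 0.168 in edgeR). It is also the interval nearest to the annotated start of Hoxd4, a gene of the hindbrain and neck whose enhancer responds to retinoic acid. Its neighbour across Mir10b, interval 14 (chr2:74726703-74727749), had 22.3, 21.99 and 16.5 CPM in mScarlet and 22.3, 22.3 and 22.4 CPM in Nr6a1OE. There the difference in means came from mScarlet 3 alone, and the log2 fold change of 0.15 (95% interval -0.04 to 0.34) was 0.016 without that library.

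Interval 6 (chr2:74686428-74688159), in the overlapping spans of Hoxd11 and Hoxd10, had 16.3, 18.1 and 16.0 CPM in mScarlet and 20.4, 19.9 and 18.5 CPM in Nr6a1OE. It was higher in all 3 Nr6a1OE libraries, at a log2 fold change of 0.23 with SE 0.10 (adjusted p = 0.322 in edgeR). The other 2 were lower in Nr6a1OE. Interval 3 (chr2:74672644-74674156), between Hoxd13 and Hoxd12 and nearest to the start of Hoxd12, had 21.3, 17.6 and 17.8 CPM in mScarlet and 16.6, 17.1 and 14.4 CPM in Nr6a1OE. The distance between mScarlet 2 and Nr6a1OE 2 was small, and the log2 fold change of -0.25 with SE 0.11 (adjusted p = 0.280 in edgeR) was -0.15 without mScarlet 1. Interval 12 (chr2:74715072-74716501), which holds the start of the non-coding gene Hoxd3os1 inside the span of Hoxd3, had 33.4, 32.2 and 38.4 CPM in mScarlet and 31.7, 30.5 and 30.9 CPM in Nr6a1OE. mScarlet 3 stood apart there, and the log2 fold change of -0.17 with SE 0.078 (adjusted p = 0.331 in edgeR) was -0.078 without it.

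**Figure D3:**
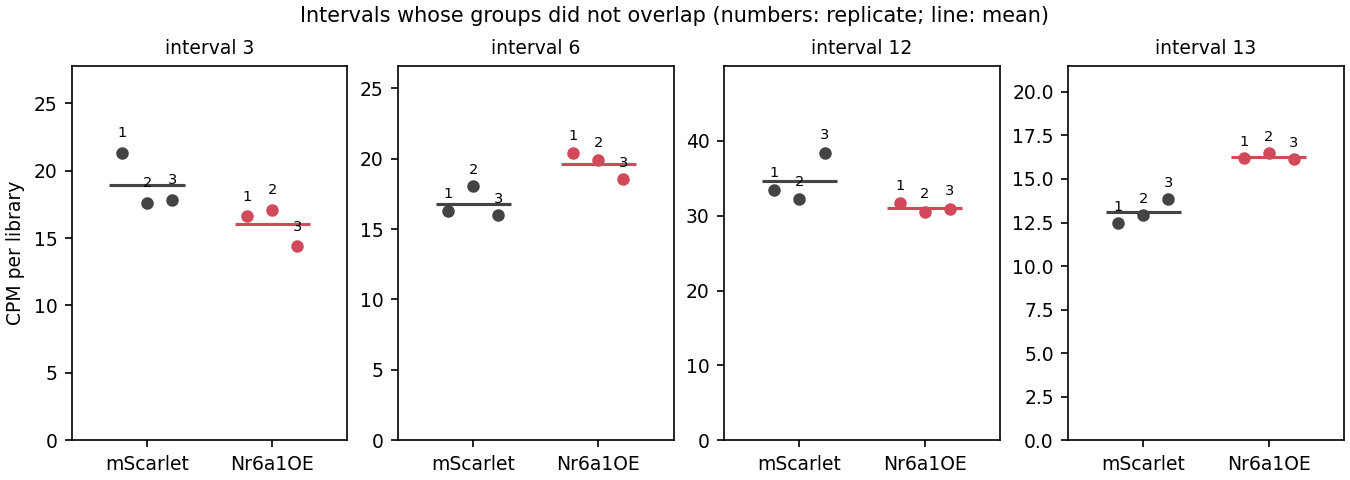
CPM in each library at the 4 HoxD intervals whose groups did not overlap (points with replicate numbers, lines for the mean of 3 libraries, axes from 0). Intervals 6 and 13 are higher and intervals 3 and 12 lower in Nr6a1OE, and 0 of the 4 passed the threshold on adjusted p.

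The most accessible intervals gave close values as well. Interval 21 in Haglr held 38.9, 37.9 and 40.7 CPM in mScarlet and 41.0, 40.5 and 42.7 CPM in Nr6a1OE, with mScarlet 3 just above Nr6a1OE 2. Its log2 fold change was 0.08 (95% interval -0.06 to 0.22). Interval 22 had 35.7, 39.9 and 35.6 CPM in mScarlet and 39.3, 37.6 and 37.6 CPM in Nr6a1OE (0.04, 95% interval -0.10 to 0.19). Interval 15 had 35.98, 32.8 and 39.2 CPM in mScarlet and 32.1, 39.5 and 40.0 CPM in Nr6a1OE (0.05, 95% interval -0.10 to 0.19), the most scattered of the 3. The remaining intervals were 1, 7 and the run of 16 to 20 inside Hoxd3. Their log2 fold changes lay between 0.03 at interval 16 and 0.27 at interval 7, and the groups overlapped at each.

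Of the 23 log2 fold changes 19 were above 0, where 50.8% of all tested intervals were. In the other Hox clusters, compared below, 23 of 26 were above 0 in HoxB, 16 of 20 in HoxC and 12 of 24 in HoxA. The HoxD median was 0.05, against 0.0038 over all tested intervals and -0.0042 over the other intervals of chromosome 2. The median was 0.017 without mScarlet 3, and the number above 0 ranged from 15 to 20 over the alternatives. Among the 13 intervals nearest to Hoxd1, Hoxd3 and Hoxd4, 12 were above 0 with a median of 0.06, and of the 8 nearest to Hoxd10 to Hoxd13, 5 were above 0 with a median of 0.02. The difference between these gene groups was not tested. Summed over the 23 intervals, the cluster held 667, 675 and 663 CPM in mScarlet 1, 2 and 3 and 688, 679 and 690 CPM in Nr6a1OE 1, 2 and 3. The sums did not overlap, and the ratio of the groups was 1.03. The 95% Poisson interval of a single library's sum, which covers counting error only, was 648 to 686 CPM for mScarlet 1 and 669 to 708 CPM for Nr6a1OE 1. A sum over chosen intervals was given no test.

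The other Hox clusters, measured in the same libraries, are given for comparison. Their intervals were those from 5 kb before the first to 5 kb after the last Hox gene. HoxD had 21.5 intervals per 100 kb, HoxA 20.8, HoxB 14.1 and HoxC 15.9. The median control level was 22.4 CPM per kb in HoxD, 28.5 in HoxA, 17.8 in HoxB and 13.8 in HoxC. Against 1.73% of all tested intervals, edgeR called 0 of 23 in HoxD, 1 of 24 in HoxA, lower in Nr6a1OE, and 1 of 26 in HoxB and 2 of 20 in HoxC, all higher. DESeq2 called 1 in HoxA and 0 in each of HoxB, HoxC and HoxD. The difference between clusters was not tested. The median log2 fold change was 0.05 in HoxD, 0.0031 in HoxA, 0.08 in HoxB and 0.10 in HoxC. With only the intervals within 1 kb of a Hox gene, it was 0.02 in HoxA and 0.12 in HoxC.

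**Figure D4:**
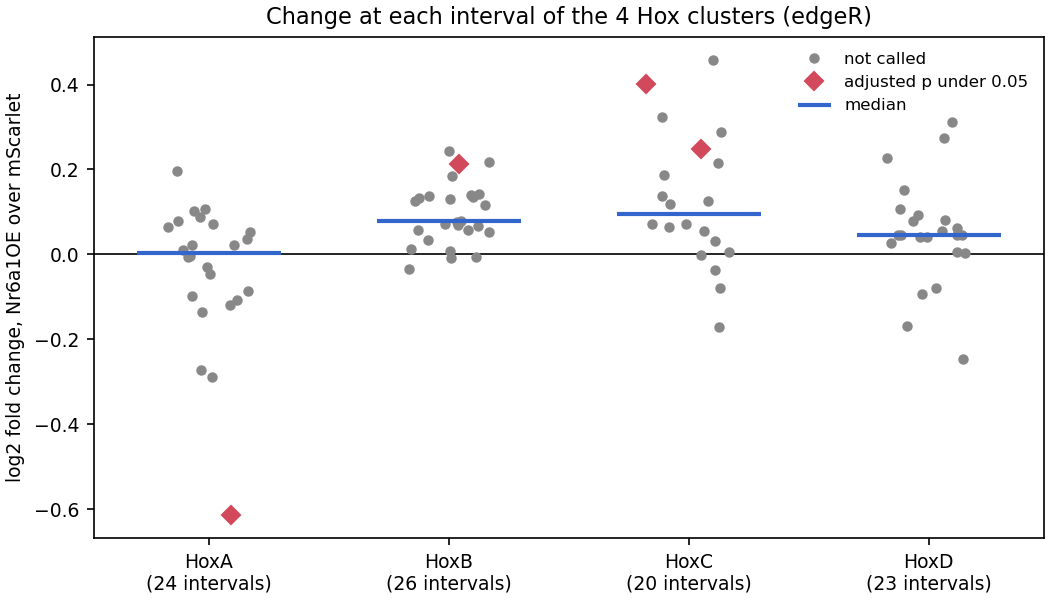
Log2 fold change of Nr6a1OE over mScarlet at each interval of HoxA (24), HoxB (26), HoxC (20) and HoxD (23), with red diamonds for an edgeR adjusted p under 0.05 and blue lines for medians. HoxD has 0 diamonds, and its values lie between -0.25 and 0.31.

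The higher level toward the anterior genes was common to all 4 clusters. The mean level per kb of intervals nearest to Hox1 to Hox5 genes, over that of intervals nearest to Hox10 to Hox13 genes, was 2.23 to 2.39 in mScarlet and 2.13 to 2.15 in Nr6a1OE for HoxA. It was 2.73 to 3.06 and 2.72 to 2.87 for HoxB, and 1.84 to 2.08 and 1.79 to 2.01 for HoxC. In HoxD, where no Hoxd5 exists, it was 1.68 to 1.80 and 1.68 to 1.92. The HoxD ratio in mScarlet was below those of HoxA, HoxB and HoxC in all 3 libraries. The sets behind these ratios were small and unlike. The anterior and posterior sets held 14 and 7 intervals in HoxA, 12 and 3 in HoxB, 5 and 8 in HoxC, and 13 and 8 in HoxD. Their median lengths were 1081.5 and 2109 bp in HoxA, 1085 and 1523 bp in HoxC, and 1047 and 1594.5 bp in HoxD. In HoxB the anterior intervals were the longer, at 2077.5 and 1804 bp. The part of interval length in the levels per kb was not tested. The difference in ratio between clusters was not tested. Over the 30 Hox genes of HoxA, HoxB and HoxC, with all intervals within 1 kb of a gene, edgeR called 3 of 55 intervals higher and 1 lower, against 0.469% and 1.26% of all tested intervals, and DESeq2 called 1.

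The surroundings of the cluster were sparse. Within 500 kb on the Evx2 side lay 13 tested intervals (2.6 per 100 kb), and within 500 kb on the Mtx2 side 11 (2.2 per 100 kb). The nearest interval outside the window on the Evx2 side lay 0.925 kb away (chr2:74661691-74662075, log2 fold change -0.05). It is in the non-coding gene Gm31790, between Evx2 and Hoxd13. On the Mtx2 side the nearest was at the start of Mtx2, 55.5 kb away (chr2:74825516-74826549, 0.14). The outermost inside the window, intervals 1 and 23, had 0.05 and 0.04. Of 6 intervals within 1 kb of Evx2, Lnpk and Mtx2, 0 were called by edgeR (1.73% of all tested), 1 had an unadjusted p under 0.05 (12.6% of all tested), and DESeq2 called 0. At an unadjusted p under 0.05, edgeR had 4 of the 13 intervals of the Evx2 flank and 1 of the 11 of the Mtx2 flank, all lower in Nr6a1OE (12.6% of all tested). At an adjusted p under 0.05 it called 1 of 13 and 0 of 11 (1.73% of all tested). The call on the Evx2 side is named here after its value was seen. That interval (chr2:74209911-74210996) lay 452 kb outside the window in the gene desert, at 6.84, 4.66 and 5.62 CPM in mScarlet and 4.26, 2.26 and 2.90 CPM in Nr6a1OE. It was lower in all 3 Nr6a1OE libraries, at a log2 fold change of -0.87 with SE 0.22 (adjusted p = 0.00794 in edgeR). It is a weak interval, its call was lost in 3 of the 6 fits that left out a library (highest edgeR adjusted p = 0.156, without mScarlet 1), and DESeq2 did not call it (adjusted p = 0.583).

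Genes that regulate Hox clusters were read from a list of 10: the Cdx homeobox genes Cdx1, Cdx2 and Cdx4, the trunk-to-tail signal Gdf11, the retinoic acid receptors Rara, Rarb and Rarg, the insulator protein gene Ctcf, the Polycomb methyltransferase gene Ezh2 and the Hox-activating methyltransferase gene Kmt2a. Of 31 intervals within 1 kb of 9 of these genes (Cdx4 had none), 0 were called by edgeR (1.73% of all tested), 3 had an unadjusted p under 0.05 (12.6% of all tested), and DESeq2 called 0. Their median log2 fold change was 0.0048. The start interval of Cdx2 had a log2 fold change of 0.14 (edgeR adjusted p = 0.432), that of Rarb one of -0.02 (0.925) and that of Ezh2 one of -0.05 (0.694). Of the 3 with an unadjusted p under 0.05, 2 lay at Rarb away from its start. Their log2 fold changes were 0.73 (edgeR adjusted p = 0.329) and -0.74 (0.173), at mean levels of 1.41 and 3.45 CPM in mScarlet. The other was at a start of Rarg, with 0.20 (0.304).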

How the data were processed

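ATAC-seq libraries of 6 samples, 3 mScarlet and 3 Nr6a1OE, were analysed from 1 deposited table of raw fragment counts over 52223 intervals. Per the file headers, the authors counted read pairs with featureCounts 2.0.1, in every interval overlapped by at least 0.2 of the fragment, so neighbouring intervals can share fragments (the smallest gap between HoxD intervals was 645 bp). Per the submitters' processing notes the build is mm10. Not given in the sources used here: aligner, peak caller, duplicate filter, Tn5 shift and interval merging.

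Groups and replicate numbers came from the sample titles. filterByExpr removed 586 intervals, and 51637 were compared with edgeR 4.0.16 (R 4.3.3, limma 3.58.1; TMM, glmQLFit, glmQLFTest, no covariate, Benjamini-Hochberg adjustment over all, threshold 0.05), a script checked on simulated data. SE is the log2 fold change over the square root of F, and 95% intervals use the test's degrees of freedom. DESeq2 1.42.0, other scalings, no filter, an assumed variation of 10% (likelihood ratio test), a replicate block and leaving out libraries were alternatives, and one, summing Nr6a1OE 1 and 3, was added after seeing the data, as was the count of fold changes above 0. Those 2 libraries agreed within counting noise where intervals averaged 100 or more fragments (chi-square per degree of freedom 0.999), but not from 10 upward (1.06), and were kept as 2 replicates. Every pair within a group was near counting noise from 10 upward (1.05 to 1.10). From 100 upward these pairs had 0.999 to 1.17. The highest were mScarlet 2 with mScarlet 3 (1.17) and mScarlet 1 with mScarlet 3 (1.08). The common variation between libraries fitted by edgeR, beyond counting noise, was 1.47%. Gene spans and starts came from RefSeq (GRCm38.p6), without exons.

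Members and lists were chosen with earlier results of these data known. The named intervals were those at or nearest each Hoxd start, the extremes in change, the 3 highest in control level per kb, and those whose groups did not overlap.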

Additional observations from a re-analysis of the deposited data

How the results depend on the processing

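No HoxD interval was called under any of the 14 alternatives, and the lowest adjusted p in any of them was 0.160. Of 322 values of single intervals under these alternatives 310 kept their direction and 12, at 6 intervals, reversed. Those were interval 1 (-0.047 without Nr6a1OE 3), interval 2 (-0.0023 without mScarlet 3), interval 5 (0.016 without Nr6a1OE 2), interval 15 (-0.014 without mScarlet 2 and -0.012 without Nr6a1OE 3) and interval 9 (-0.0056, -0.029 and -0.021 without mScarlet 2, mScarlet 3 and Nr6a1OE 3). With 1 library left out these 5 ranged from -0.047 to 0.12, -0.0023 to 0.12, -0.16 to 0.016, -0.014 to 0.14 and -0.029 to 0.054, in that order. Interval 8 reversed to -0.00037 with an assumed variation of 10%, and to -0.016, -0.021 and -0.075 without mScarlet 3, Nr6a1OE 1 and Nr6a1OE 3 (range -0.075 to 0.10). The HoxD median was 0.017 to 0.059 with 1 library left out, the summed log2 ratio of 0.04 was 0.033 to 0.045, and the count above 0 was 15 to 20. Intervals within 1 kb of a Hox gene gave HoxC a median of 0.12 in place of 0.10 and HoxA one of 0.022 in place of 0.0031. The causes were not tested. Over all intervals, opened and closed calls were 242 and 652. They were 16 and 175 with the assumed variation, 3 and 97 in DESeq2, and 98 to 190 and 395 to 544 with 1 library left out. The replicate block gave 224 and 617 calls, 0 of them in HoxD, and a HoxD median of 0.05. Same-numbered libraries did not deviate together (correlations -0.0063 to 0.0044). Libraries of a group differed by little more than counting noise, so these correlations cannot show whether the numbers pair the samples. Depth limits the weakest intervals: interval 7, at 34 to 48 fragments per library, could hide a change of up to 1.56-fold.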
